A study of Rattus norvegicus with 31 samples.

Results

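The mitochondrial carriers of the Slc25 family were examined in PBMC of rats, the mononuclear fraction of blood that holds mainly lymphocytes and monocytes. They were found on the array by name: every probe whose gene was called Slc25a followed by a number, or Ucp1, Ucp2 or Ucp3, was taken. This gave 63 probes for 44 genes, of 41012 probes for 34231 genes in all. Of these, 53 probes for 37 genes were bright enough to be tested, where the whole array had 26716 such probes. The study mated 16 rats and cut the food of some dams by 20% over days 1 to 12 of pregnancy. Offspring of unrestricted dams, named WT in the titles and controls in the protocol, gave 7 samples, and offspring of restricted dams with ordinary suckling, called CR, gave 11. CR-L offspring (13 samples), also of restricted dams, received leptin as pups until postnatal day 21, at daily doses rising from 1.0 to 43.8 ng, set at 5 times the intake from milk. All 3 groups then ate chow freely for 4 months before blood was drawn.

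Each sample had its own Agilent array, with its RNA in red (Cy5) against a common green (Cy3) pool made of 5 samples of each group. Every value below is a log2 ratio of sample over pool, so it says where a sample stands for that probe and not how abundant the transcript is. The labels give neither litter nor sex for a sample. With 31 samples from at most 16 dams, some animals must share a dam, and the p-values measure the spread between these samples and could be too small. Both sexes are mentioned for the control offspring. The arrays lay on 8 slides, of which 7 held a single WT array each. Median red intensity ran from 69.8 to 235 per array against a local background of 27 to 30.5. The brightest array, WT replicate 6, stood apart, with the next highest median at 93.9. No pair of arrays looked like one sample hybridised again, the highest correlation between arrays being 0.784. Of the marker genes tested, 17 of 17 for T cells and 14 of 14 for B cells were well above background on every array. So were 14 of 15 for monocytes, 12 of 12 for NK and cytotoxic cells and 8 of 13 for granulocytes. Red cell precursor genes were also well above background on every array for 19 of 22 markers, and platelet genes for 10 of 12. Detection was thus not limited to the cells of the label.

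The inner membrane of mitochondria lets few solutes through, and the Slc25 proteins carry most of those that must cross it. They exchange ADP for ATP, bring in phosphate, move citrate, malate and amino acids between mitochondrion and cytosol, and deliver iron, cofactors and nucleotides. Uncoupling proteins belong to the same family, and Ucp1 lets protons return in brown fat without making ATP. In blood the family is best known from red cell precursors, where Slc25a37 (mitoferrin 1) brings in iron and Slc25a38 glycine for haem.

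The members are related in sequence, because each protein repeats a short signature that begins with proline and an acidic residue and ends with lysine or arginine. Its letters were searched on the strand of the probe as a stretch of 17 bases: CC and any base for proline, any codon, GA and any base for an acidic residue, 2 further codons of any kind, and AA, which opens the codons of lysine and of asparagine. The stretch was present in 3 of the 63 carrier probes (4.76%) and in 459 of all 41012 probes (1.12%). The 3 are printed because they show the family trait that the names alone do not, with the matching stretch in capitals.
Slc25a1: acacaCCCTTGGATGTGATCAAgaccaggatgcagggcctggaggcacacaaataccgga
Slc25a11: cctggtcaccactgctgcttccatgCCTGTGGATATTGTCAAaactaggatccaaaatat
Slc25a15: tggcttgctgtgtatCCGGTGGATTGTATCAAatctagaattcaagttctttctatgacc
A match to so loose a pattern is a description of the letters and not proof of the signature. The probes are 60 bases long, and the files place them on the rat build rn4 at chr11:85045916-85046057 for Slc25a1 and chr10:57524892-57525028 for Slc25a11. Both spans exceed the probe's length, as they would for a probe that crosses an exon junction. The Slc25a15 probe lay at chr16:74299612-74299671. In the transcript the files place these 3 probes at positions 826, 689 and 709, in the same order, without saying which part is coding.

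Most of the family was detected in these blood cells. All 4 carriers of iron, glycine and glutathione were tested, as were both carriers of the outer membrane or of unsettled substrate. Of the nucleotide, cofactor and phosphate carriers, the largest role, 13 of 15 genes and 25 of 27 probes were tested. Of the amino acid and carnitine carriers 10 of 12 genes were tested, and of the di- and tricarboxylate carriers 4 of 5. Of the uncoupling proteins and their near relatives, 4 of 6 genes were tested. Ucp1 was not well above background on any of the 31 arrays, and Ucp3, the form of skeletal muscle, on 6 (3 WT, 1 CR and 2 CR-L). Also too dim were Slc25a41 and Slc25a54 (1 array each), Slc25a48 (1), Slc25a47 (4) and Slc25a21 (4), the oxoadipate carrier. Dim as well were 2 of the 3 probes of Slc25a27 (3 arrays and 1) and 1 of the 2 of Slc25a18 (1 array), whose other probes were tested. For each carrier probe above background on 1 array only, that array was WT replicate 6, the brightest of all. A probe had to be well above background on 7 arrays to be tested, so Ucp3 lay just outside that limit. Just inside it lay Slc25a44 on 10 arrays, the second Slc25a24 probe on 11, and Slc25a45 and the second Slc25a42 probe on 12. In all, 43 of the 63 probes were above background on all 31 arrays, that of Ucp2, the uncoupling protein of immune cells, among them. No carrier probe was saturated.

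Few carriers differed between the groups by more than the spread between arrays. In CR against WT, 0 of the 53 carrier probes passed an adjusted p of 0.05 in limma, where 0.483% of all probes tested did. At an unadjusted p under 0.05 there were 9 of 53 (17%), against 12.2% of all probes, 6 of them higher in CR and 3 lower, beside 7.38% and 4.80% of all probes. The difference was above 0 for 36 of 53, beside 55.2%. In CR-L against WT, 2 of 53 carrier probes (3.77%) passed, against 3.48% of all probes, and the share was thus near the background. One was higher and one lower, beside 2.04% and 1.44% of all probes. Unadjusted, 9 passed (17%, against 16.5%), 5 higher and 4 lower, beside 9.18% and 7.29%. The difference was above 0 for 34 of 53, beside 54.2%. In CR-L against CR no carrier probe passed in limma, adjusted or unadjusted, where 0% and 2.22% of all probes did (1.12% higher and 1.10% lower). The difference was above 0 for 26 of 53, beside 46.6%. The median difference of the 53 probes was 0.02, 0.02 and -0.00 in the 3 comparisons, beside 0.01, 0.01 and -0.00 over all probes. The first 2 comparisons share the WT arrays, so a probe that is off in WT moves both. Fewer cells of a type and less RNA per cell cannot be told apart in such samples.

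**Figure D1:**
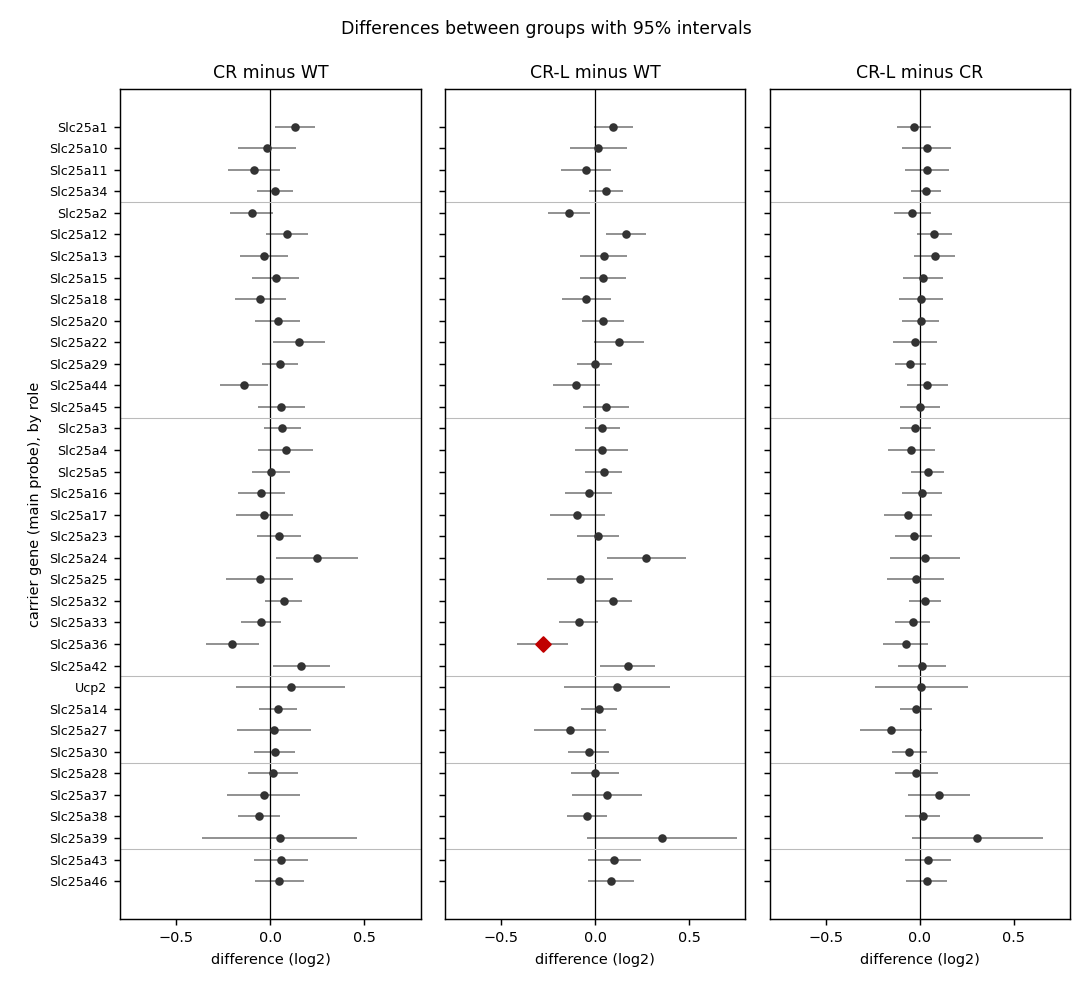
Differences between groups in log2 units (horizontal axis) with their 95% intervals, for the probe of highest mean intensity of each of 36 tested carrier genes, ordered by role (vertical axis), with 1 panel per comparison. The diamond marks a probe past an adjusted p of 0.05, Slc25a36 at -0.28 in CR-L minus WT; the widest intervals belong to Slc25a39.

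Slc25a36, a carrier of pyrimidine nucleotides that supplies mitochondria with the building blocks of their DNA and RNA, was lower in CR-L than in WT offspring. On the 7 WT arrays its brightest probe had log2 ratios of 0.14 at the lowest, 0.29 at the median and 0.47 at the highest. On the 13 CR-L arrays these were -0.25, -0.03 and 0.21, and on the 11 CR arrays -0.25, 0.09 and 0.39. All 13 CR-L arrays lay under the WT median, and 11 of them under the lowest WT array, while 2 overlapped the WT range. The mean fell from 0.28 ± 0.11 (SD, n = 7) to -0.00 ± 0.14 (SD, n = 13), a difference of -0.28 ± 0.07 (SE) or 1.21-fold (limma, adjusted p = 0.0151). CR-L lay below WT on 7 of the 7 slides that held both. In CR against WT the same probe differed by -0.20 ± 0.07 (SE), again below WT on all 7 slides, and did not pass (limma, adjusted p = 0.176), although 9 of 11 CR arrays lay under the lowest WT array. CR-L and CR differed by -0.07 (95% interval -0.19 to 0.04).

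The gene had 3 probes, at chr8:102158464-102158523, chr8:102159539-102159598 and chr8:102161082-102161141 (rn4). The other two, in this order, differed by -0.23 (limma, adjusted p = 0.264) and -0.22 (adjusted p = 0.145) in CR-L against WT, the same direction without passing. Those 2 followed each other closely over the 31 arrays (r = 0.921) and the brightest probe hardly (r = 0.143 and 0.264). With the group means taken out, the brightest probe followed neither (r = -0.115 and -0.0165). The group difference thus had the same sign in all 3 probes, while the brightest probe did not share the variation between animals within a group. The call on the brightest probe was lost in the red channel alone (adjusted p = 0.0593) and without WT replicate 4 (-0.25, adjusted p = 0.0579). With the means of T cell, B cell, monocyte and erythroid markers as covariates the difference was -0.27 (adjusted p = 0.0391).

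**Figure D2:**
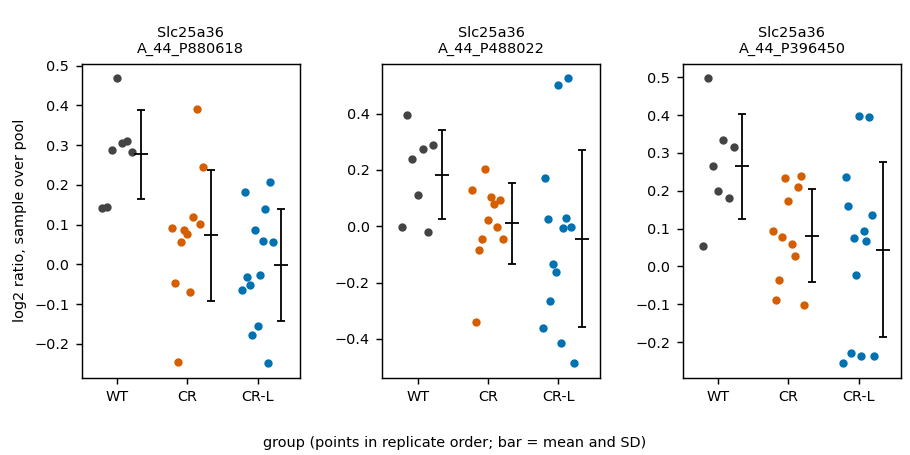
Log2 ratio of sample over pool (vertical axis) of the 3 probes of Slc25a36, 1 panel per probe, by group; points are arrays and bars the group mean and SD. For the brightest probe 11 of 13 CR-L points lie under the lowest WT point, while the other probes overlap more.

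Of the nucleotide and cofactor carriers that did not pass, Slc25a24, a calcium-regulated exchanger of ATP-magnesium for phosphate, had the smallest p-value in CR-L against WT at its brightest probe. Its WT arrays ran from -0.42 through -0.21 to 0.13, its CR arrays from -0.16 through 0.05 to 0.47 and its CR-L arrays from -0.30 through 0.08 to 0.67. All 11 CR arrays and 11 of 13 CR-L arrays lay above the WT median, but most lay inside the WT range. The difference was 0.25 ± 0.11 (SE) in CR (limma, adjusted p = 0.335) and 0.27 ± 0.10 (SE) in CR-L (adjusted p = 0.157), with CR-L above WT on 7 of 7 slides. In the red channel alone the CR-L difference was 0.34 with an adjusted p of 0.0497, and with the marker means as covariates 0.29 with 0.185. The dimmer Slc25a24 probe, above background on 11 arrays (2 WT, 3 CR and 6 CR-L), differed by 0.03 and 0.04. It reached the limit of 7 arrays only through CR-L, where its mean was highest, so these differences are not free of that filter.

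Slc25a42, the carrier of coenzyme A, had WT values from -0.42 through -0.08 to 0.06, CR values from -0.07 through 0.03 to 0.23 and CR-L values from -0.09 through 0.01 to 0.55. All 11 CR arrays and 12 of 13 CR-L arrays lay above the WT median, with 3 and 4 of them above the highest WT array. The differences from WT were 0.16 and 0.17 ± 0.07 (SE; limma, adjusted p = 0.363 and 0.203). The CR-L difference was 0.07 with the marker means as covariates. This probe lay above WT on 5 of 7 slides in CR and in CR-L, and its lowest value was that of WT replicate 6. At the second Slc25a42 probe 0 CR arrays and 1 CR-L array lay above the highest WT array, and 2 and 4 under the lowest. Slc25a32, a folate and flavin carrier, differed by 0.10 in CR-L (adjusted p = 0.302) and its second probe by 0.01. The pyrimidine nucleotide carrier Slc25a33 differed by -0.09 in CR-L at its brightest probe (adjusted p = 0.415; -0.22 in the series table and -0.27 under Agilent's log ratio), and its other probe by 0.11 in CR (adjusted p = 0.320). These 2 probes pointed in opposite directions against WT.

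The rest of this role lay closer to WT. Slc25a25, the ATP-magnesium carrier that responds to feeding and cold, differed by -0.06 ± 0.09 (SE) in CR and -0.08 ± 0.09 in CR-L, and its 2 probes did not follow each other (r = -0.0778). Slc25a23 differed by 0.05 and 0.01, Slc25a16 by -0.05 and -0.04 and Slc25a17 by -0.03 and -0.09. Slc25a17 went as low as -0.58 in CR-L, on an array whose other carriers were often extreme as well (CR-L replicate 5).

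No carrier that serves ATP synthesis itself passed. Slc25a4 and Slc25a5 are the ADP/ATP exchangers, and Slc25a3 brings in phosphate. Slc25a3 differed from WT by 0.06 ± 0.05 (SE) in CR and 0.04 ± 0.05 in CR-L. Slc25a4 differed by 0.08 ± 0.07 and 0.04 ± 0.07, and Slc25a5 by 0.00 ± 0.05 and 0.05 ± 0.05, none past the threshold (limma, smallest adjusted p = 0.639 for Slc25a3 in CR). For Slc25a5 in CR-L against WT the 95% interval was -0.05 to 0.15. The 3 probes of Slc25a4 followed each other at r from 0.644 to 0.892, and those of Slc25a5 at 0.826 to 0.95. Of Slc25a5, 2 probes are printed because they share a stretch of 38 bases, so their agreement is not independent. They differ in it at 2 bases, in capitals, A27G and C50A counted from the first base of the upper probe.
Slc25a5, probe A_44_P105366: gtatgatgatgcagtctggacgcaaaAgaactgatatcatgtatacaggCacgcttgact
Slc25a5, probe A_44_P175954: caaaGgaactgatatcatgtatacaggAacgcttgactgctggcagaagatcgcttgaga
Probes so alike can bind transcripts of near-identical copies, and which copy each one reads is uncertain. The files place both at chrX between 8072602 and 8073019. In CR-L against WT they differed by 0.02 and 0.01.

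Among the amino acid carriers, Slc25a12 had the smallest p-value. It is a calcium-binding exchanger of aspartate for glutamate and a part of the malate-aspartate shuttle. Its WT arrays ran from -0.17 through -0.03 to 0.05, CR arrays from -0.17 through 0.05 to 0.16, and CR-L arrays from -0.08 through 0.15 to 0.28. In CR-L, 8 of 13 arrays lay above the highest WT array and the other 5 inside the WT range. The CR-L difference was 0.16 ± 0.05 (SE; limma, adjusted p = 0.0785), above WT on 6 of 7 slides. It passed with slide as a block (0.19, adjusted p = 0.0425) and without CR-L replicate 13 (adjusted p = 0.0453). Its counterpart in liver, Slc25a13 (citrin), differed by 0.05 ± 0.06 (SE) in CR-L against WT and by 0.08 ± 0.05 against CR. Its size depended on the channel and correction used, with 0.33 against WT in the red channel alone, 0.16 in the authors' series table and 0.15 under Agilent's log ratio, and 0.24, 0.15 and 0.15 against CR, none past the threshold.

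The second ornithine carrier, Slc25a2, had values from -0.03 through 0.18 to 0.39 in WT and from -0.11 through -0.00 to 0.22 in CR-L, with 6 of 13 CR-L arrays under the lowest WT array. The difference was -0.14 ± 0.06 (SE; limma, adjusted p = 0.171). Under Agilent's own log ratio it was -0.55 with an adjusted p of 0.0244. It did not pass in the red channel alone (-0.10, limma, adjusted p = 0.385) or with the marker means as covariates (-0.13, adjusted p = 0.362). In CR against WT it was -0.10 (adjusted p = 0.499), and -0.40 under Agilent's log ratio. The glutamate carrier Slc25a22 differed by 0.15 ± 0.07 (SE) in CR against WT (limma, adjusted p = 0.350), with 8 of 11 CR arrays above the highest WT array. Slc25a44, which moves branched-chain amino acids, differed by -0.14 in CR (adjusted p = 0.352) and -0.10 in CR-L. It was well above background on 10 arrays (5 WT, 2 CR and 3 CR-L) and reached the limit of 7 only through WT, where it was highest. Its differences from WT are thus not free of that filter. The CR difference was -0.00 in the red channel alone and -0.79 under Agilent's log ratio. The CR-L difference was 0.00 and -0.75 in these settings. Slc25a20, which carries acylcarnitines to fat oxidation, differed by 0.04 in both CR and CR-L (limma, adjusted p = 0.846 and 0.781). The basic amino acid carrier Slc25a29 differed by -0.05 in CR-L against CR, and by -0.13 under Agilent's log ratio. Slc25a15, the main ornithine carrier, differed from WT by 0.03 in CR and 0.04 in CR-L, the second glutamate carrier Slc25a18 by -0.05 in each, and Slc25a45 by 0.06 in each. Slc25a45 reached the limit of 7 arrays only through CR-L, so its differences are not free of that filter either. The 12 probes of this role had a median difference of 0.03 in CR and 0.04 in CR-L against WT.

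The di- and tricarboxylate carriers had no probe past the threshold, with 1 of 4 at an unadjusted p under 0.05 (Slc25a1, limma) in CR against WT, beside 12.2% of all probes, and 0 in the others. Slc25a1 exports citrate, the carbon source of fatty acid synthesis. Its values ran from -0.27 through -0.07 to 0.03 in WT, from -0.15 through 0.01 to 0.19 in CR and from -0.21 through 0.00 to 0.11 in CR-L. The CR difference was 0.13 ± 0.05 (SE; limma, adjusted p = 0.293), with 5 of 11 CR arrays above the highest WT array. The CR-L difference was 0.10, and 0.04 in the red channel alone. The oxoglutarate carrier Slc25a11, the partner of Slc25a12 in the malate-aspartate shuttle, differed by -0.09 in CR and -0.05 in CR-L (adjusted p = 0.652 and 0.784). The dicarboxylate carrier Slc25a10 differed by -0.02 and 0.02, and Slc25a34 by 0.02 and 0.06.

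The last 2 carriers also failed to pass. Slc25a46, a protein of the outer membrane that acts in fission and lipid transfer, ran from -0.06 through 0.00 to 0.15 in WT and from -0.13 through 0.07 to 0.44 in CR-L. It differed by 0.08 ± 0.06 (SE; limma, adjusted p = 0.547), above WT on 7 of 7 slides, and the groups overlapped. Slc25a43, of unsettled substrate, differed by 0.10 ± 0.07 (adjusted p = 0.502).

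No difference of Ucp2 between groups passed, and it was among the most variable members. Its WT arrays ran from -0.45 through -0.07 to 0.14, CR arrays from -0.32 through -0.12 to 0.68 and CR-L arrays from -0.48 through -0.10 to 0.97. The differences were 0.11 ± 0.14 (SE) in CR and 0.12 ± 0.14 in CR-L against WT (limma, adjusted p = 0.819 and 0.746). Without CR-L replicate 13 the CR-L difference was 0.04. The array carried 10 spots of this probe, whose SD within an array had a median of 0.0224, while the SD between arrays was 0.304. The spread between samples was thus wider than that between spots of one array. Slc25a27, a relative of the uncoupling proteins best known from brain, differed by -0.15 ± 0.08 (SE) in CR-L against CR (limma, adjusted p = 1.00), with CR-L below CR on all 8 slides. That difference was -0.07 in the red channel alone, -0.28 without the offset and -0.33 under Agilent's log ratio. Slc25a30 and Slc25a14, from the same branch, differed there by -0.06 and -0.02, Slc25a30 by -0.15 under Agilent's log ratio.

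**Figure D3:**
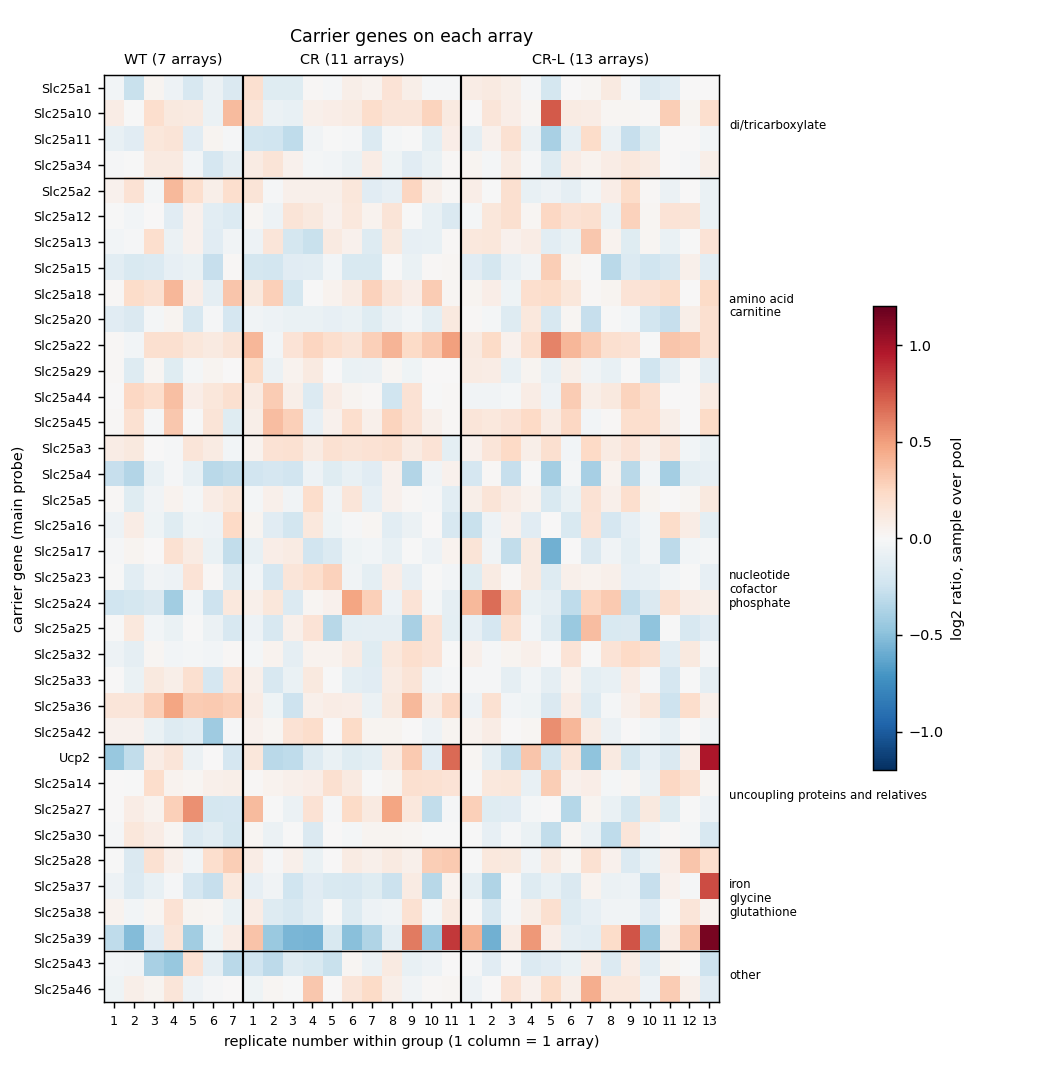
Log2 ratio of sample over pool (colour) of 36 tested carrier genes (vertical axis, brightest probe) on each of the 31 arrays (horizontal axis, by group and replicate number). Most cells are near 0; Slc25a39 has the widest range, from -0.58 to 1.14, and CR-L replicate 5 is the lowest or highest array for 11 of the 37 genes tested.

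The SD over the 31 arrays had a median of 0.13 among the 37 genes, from 0.0897 for Slc25a34 to 0.458 for Slc25a39. Over 0.2 lay Slc25a39, Ucp2 (0.304), Slc25a24 (0.251), Slc25a27 (0.212) and Slc25a37 (0.203). Extreme values gathered on some arrays. CR-L replicate 5 was lowest for 4 genes and highest for 7, CR-L replicate 7 and WT replicate 4 were extreme for 7 genes each, and CR-L replicate 13 for 5.

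Slc25a39, which brings glutathione into mitochondria and was first linked to haem synthesis, had the largest group difference of the carriers tested and did not pass. Its WT arrays ran from -0.52 through -0.14 to 0.14, CR arrays from -0.56 through -0.37 to 0.85, and CR-L arrays from -0.58 through 0.09 to 1.14. The groups overlapped widely, with 6 of 13 CR-L arrays inside the WT range, 6 above it and 1 below it. The difference was 0.35 ± 0.20 (SE) in CR-L against WT (limma, adjusted p = 0.378), 0.31 ± 0.17 against CR (adjusted p = 1.00) and 0.05 ± 0.20 in CR against WT (adjusted p = 0.952). The second probe of the gene followed the first at r = 0.995 and differed by 0.36 from WT and 0.30 from CR. With slide as a block the difference from WT was 0.22. The iron importer Slc25a37 differed by 0.06 in CR-L against WT and 0.10 against CR. Without CR-L replicate 13 these were -0.00 and 0.03, in the red channel alone the first was 0.17, and with the marker means as covariates they were 0.01 and -0.03. The glycine carrier Slc25a38 differed by -0.04 and 0.02. The second mitoferrin, Slc25a28, which serves cells other than red cell precursors, differed by -0.00 and -0.02.

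Slc25a39 tracked the markers of red cell precursors from array to array. Its probes and that of Ucp2, the next closest carrier, are printed to show which stretches were read.
Slc25a39, probe A_44_P516867: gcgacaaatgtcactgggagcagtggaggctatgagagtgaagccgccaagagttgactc
Slc25a39, probe A_44_P130785: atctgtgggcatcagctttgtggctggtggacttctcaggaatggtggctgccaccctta
Ucp2: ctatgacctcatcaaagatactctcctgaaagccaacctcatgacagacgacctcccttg
The first Slc25a39 probe lies at chr10:91511414-91511552 and Ucp2 at chr1:157927128-157927571 (rn4).

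Over the 31 arrays Slc25a39 followed the mean of 22 erythroid markers with r = 0.921 and rho = 0.943 (permutation test, 100000 resamples, p = 1e-05, the smallest they can give, and adjusted p = 0.00259 over 259 relations of 37 genes with 7 marker lists). Of 26694 probes outside the marker list, 31 (0.116%), this one included, had an r at least as high. The relation was there in each group, with r = 0.979 in WT, 0.907 in CR and 0.928 in CR-L. It was 0.911 without the 2 arrays farthest from the median of the marker mean, 0.906 over deviations from slide means, and 0.905 to 0.935 with each array left out. The erythroid mean itself ran from -0.89 to 0.08 in WT, from -1.53 to 0.68 in CR and from -1.68 to 1.24 in CR-L. All 22 markers were above 0 in CR-L against WT, beside 54.2% of all probes, and 0 passed (limma, 0 also at an unadjusted p under 0.05). In CR against WT 4 were above 0 and 18 below, beside 55.2% of all probes above 0. In CR-L against CR 19 were above 0, beside 46.6% of all probes, and 0 passed. At an unadjusted p under 0.05 in limma there were 4 in that comparison, 3 higher and 1 lower (18.2%, beside 2.22% of all probes). With the marker means as covariates the Slc25a39 difference was 0.19 ± 0.09 (SE) in CR-L against WT and 0.09 ± 0.08 against CR.

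Further carriers followed the erythroid mean, less closely. Ucp2 had r = 0.667 (rho = 0.613, permutation test, adjusted p = 0.00345), Slc25a37 0.647 (rho = 0.604, adjusted p = 0.00345), Slc25a38 0.605 (rho = 0.619, adjusted p = 0.0121) and Slc25a20 0.538 (rho = 0.572, adjusted p = 0.0376). The phosphate carrier Slc25a3 ran the other way (r = -0.533, rho = -0.542, adjusted p = 0.0376). Among all probes, 1.08% were at least as high as Ucp2 and 1.18% as Slc25a37. Without the 2 arrays farthest from the median, Ucp2 (0.615) and Slc25a38 (0.572) kept an adjusted p under 0.05, and Slc25a37 (0.512, adjusted p = 0.0767), Slc25a20 (0.532, 0.0666) and Slc25a3 (-0.459, 0.149) did not. Within slides, Slc25a39 alone of these 6 passed. Slc25a28, the mitoferrin of other tissues, had r = 0.142 (adjusted p = 0.774).

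**Figure D4:**
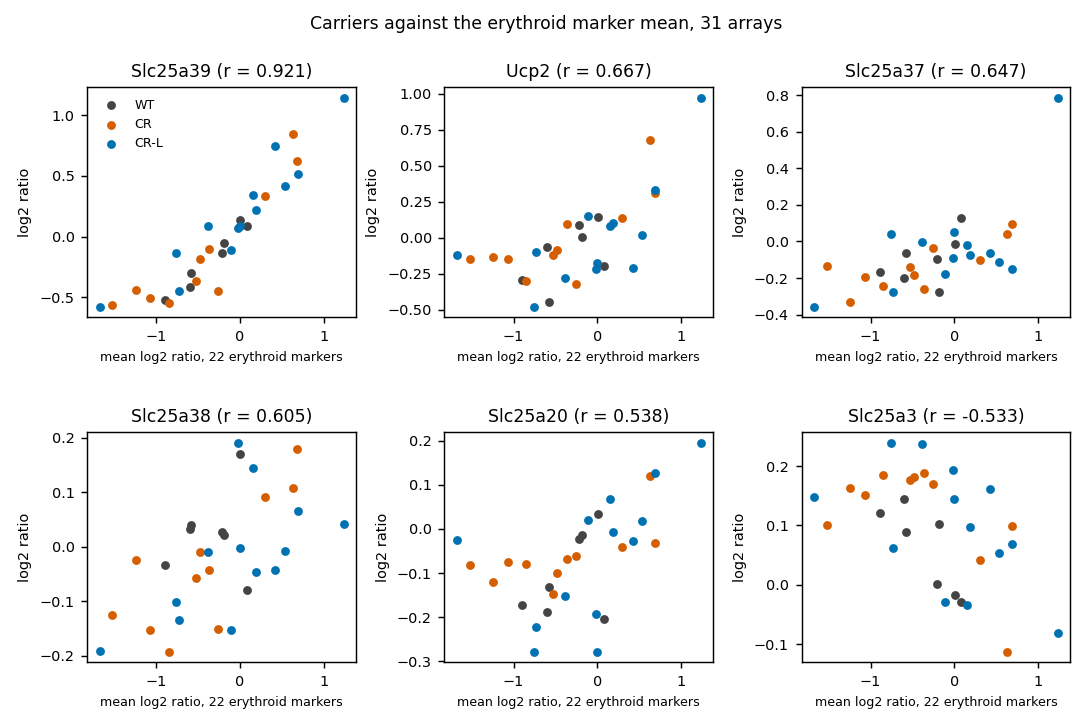
Log2 ratio of 6 carriers (vertical axes) against the mean log2 ratio of 22 erythroid markers (horizontal axis), each point an array coloured by group. The Slc25a39 points lie along a line (r = 0.921) in all 3 groups, while those of Ucp2 (r = 0.667) and Slc25a37 (r = 0.647) scatter more.

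Blood cell markers of other kinds went with other members. Slc25a42 and Slc25a12 ran against the mean of 14 B cell markers, with r = -0.640 (rho = -0.689) and -0.616 (rho = -0.701; permutation test, adjusted p = 0.0104 and 0.0121). Slc25a12 kept its call over group deviations (-0.585), over slide deviations (-0.623) and without the 2 outermost arrays (-0.582). Slc25a42 kept it in the first 2 of these (-0.612 and -0.661) and not in the last (-0.506, adjusted p = 0.0767). No B cell marker passed in CR-L against WT (limma), although all 14 differences were below 0. At an unadjusted p under 0.05, 5 of 14 were lower (35.7%), beside 7.29% of all probes. The mean of these markers overlapped between groups, from -0.54 to 0.30 in WT, from -0.98 to 0.42 in CR and from -0.80 to 0.33 in CR-L. With the marker means as covariates the CR-L difference of Slc25a12 was 0.13 ± 0.05 (SE; limma, adjusted p = 0.193).

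Slc25a1 and Slc25a29 followed the T cell mean (r = 0.555 and 0.556, rho = 0.516 and 0.597, permutation test, adjusted p = 0.0331 for both), and also passed without the 2 outermost arrays. Over slide deviations they were 0.425 and 0.393 and did not pass. Slc25a5 and Slc25a11 followed monocyte markers (r = 0.549 and 0.520, rho = 0.554 and 0.412), 0.410 and 0.418 without 2 arrays. Slc25a42 ran against the monocyte mean (r = -0.536, rho = -0.304), and this relation rested on 2 arrays, without which it was -0.218. Slc25a23, another calcium-regulated ATP-magnesium carrier, ran against granulocyte markers (r = -0.526, rho = -0.559). Slc25a17, a carrier of cofactors into peroxisomes, followed platelet markers (r = 0.562, rho = 0.576), and Slc25a16 ran against them (r = -0.586, rho = -0.504). The platelet mean was lowest on CR-L replicate 3 (-2.72) and CR-L replicate 7 (-2.29). No carrier passed for NK and cytotoxic cells. In all, 16 of 259 relations passed, 10 positive and 6 negative, and 8 without the 2 arrays farthest out, 11 over group deviations and 3 over slide deviations. Those 3 were Slc25a39 with erythroid markers and Slc25a12 and Slc25a42 with B cell markers. Within slides no relation with T cell, monocyte, granulocyte or platelet markers passed. Leaving out single arrays gave 8 to 17, with 9 without WT replicate 7, 8 without CR replicate 1, 8 without CR-L replicate 6 and 9 without CR-L replicate 7. Slc25a36 had no relation past the threshold, the largest being -0.353 with NK and cytotoxic markers (rho = -0.317, permutation test, adjusted p = 0.318).

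**Figure D5:**
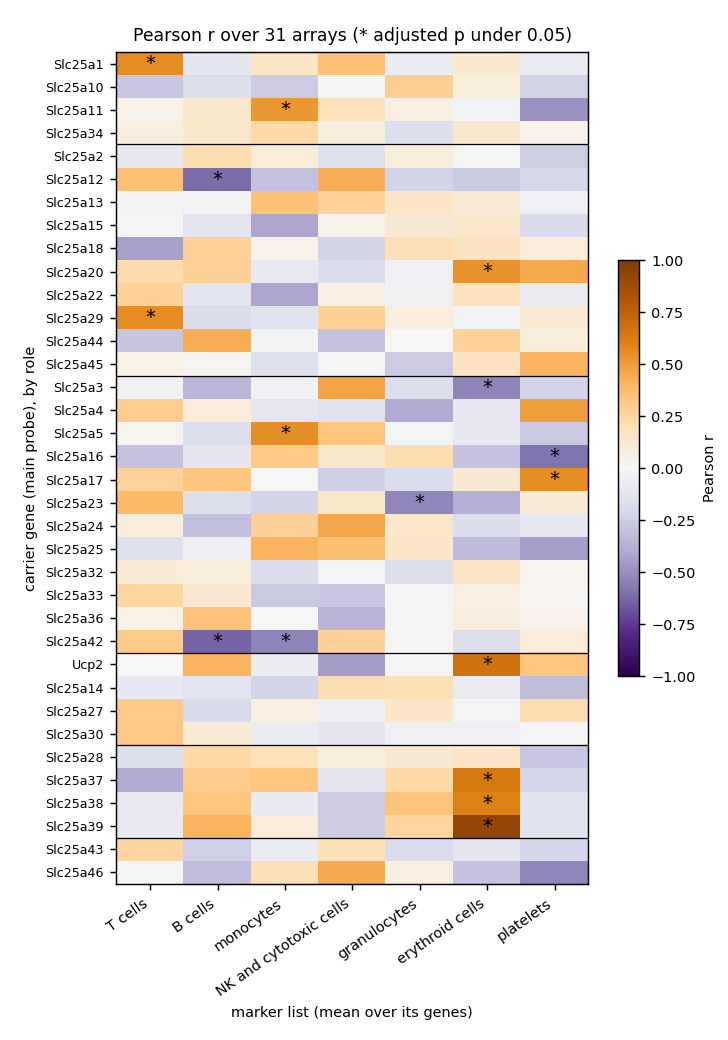
Pearson r over 31 arrays (colour) of 36 tested carrier genes (vertical axis, by role) with the mean of each of 7 marker lists (horizontal axis); stars mark an adjusted p under 0.05. Of 252 cells 16 are starred, 6 of them in the erythroid column.

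Carriers also moved with each other. Of 666 pairs of the 37 genes, 21 passed an adjusted p of 0.05 (permutation test, 12 positive and 9 negative), and the median r was 0.018. The closest pair was Slc25a20 with Ucp2 (r = 0.789, rho = 0.733, adjusted p = 0.00333 and 0.0200). It was 0.702 without the 2 outermost arrays (adjusted p = 0.0200) and 0.749 over slide deviations (0.00333), and it alone of the 21 passed without those arrays. Slc25a39 followed Ucp2 (r = 0.714, rho = 0.571) and Slc25a37 (r = 0.680, rho = 0.633), which were 0.510 and 0.543 without 2 arrays. Slc25a3 ran against Ucp2 (r = -0.708, rho = -0.642), and at -0.546 without 2 arrays. Slc25a10 against Slc25a17 (r = -0.686, rho = -0.361) rested on CR-L replicate 5, without which r was -0.446. Over deviations from slide means 29 pairs passed, 16 of them shared with the 21. For pairs the deviations were permuted over all arrays and not within slides, so these p-values could be too small.

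Other genes of the same pathways were read from the same fit. Of 14 genes that import carrier proteins and insert them into the inner membrane, 2 fell in CR-L against WT (14.3%) and 0 rose. Of all probes, 1.44% fell and 2.04% rose in that comparison. Agk, a subunit of the TIM22 insertion complex, fell by 0.25 (limma, adjusted p = 0.00511), and Tomm20, a receptor of the outer membrane pore, fell by 0.15 (adjusted p = 0.0134). In CR against WT they differed by -0.22 (adjusted p = 0.0527) and -0.13 (0.0847). Timm9, which chaperones carriers between the membranes, differed by -0.11 in CR-L (0.207), and the median of the 14 was -0.01. One of the 2 calls was lost in the authors' series table and with marker means as covariates.

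Of 25 other membrane transporters, 1 passed in CR-L against WT (4%), near the 3.48% of all probes. Cpt2, which acts on the acylcarnitines that Slc25a20 has carried in, rose by 0.24 (limma, adjusted p = 0.0316). This call was lost in the series table, with the covariates, and without WT replicate 2, 4, 5 or 6 or CR-L replicate 2. Mcu, the calcium channel, differed by 0.17 (0.166) and Mpc1, of the pyruvate carrier, by 0.15 (0.213). None of the 15 enzymes of the malate-aspartate shuttle and citrate passed in limma, with 2 at an unadjusted p under 0.05 (13.3%, beside 16.5% of all probes). These were Idh1 at 0.33 (adjusted p = 0.0737) and Idh2 at 0.28 (0.0960), which are isocitrate dehydrogenases.

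Of 19 genes of haem and iron-sulphur synthesis, 2 rose in CR-L against WT (10.5%) and 0 fell, beside 2.04% and 1.44% of all probes. Cpox, a late enzyme of haem synthesis, rose by 0.31 (limma, adjusted p = 0.00123), and Alas1, the first enzyme outside red cells, by 0.33 (0.00580). The median of this list was 0.18, beside 0.01 over all probes. One of its genes, Alas2, is also an erythroid marker. Of 17 regulators of mitochondrial biogenesis, 1 passed in CR-L against WT (5.88%, beside 3.48% of all probes). Tfb2m, a factor for transcription of mitochondrial DNA, rose by 0.18 (limma, adjusted p = 0.0288). No regulator passed with the covariates, with slide as a block, or without WT replicate 2, 3, 4 or 7. Gabpa, which drives nuclear genes of the respiratory chain, differed by -0.15 (0.0974). In CR against WT and in CR-L against CR, 0 genes of these 5 lists passed in limma. At an unadjusted p under 0.05 in CR against WT there were 3 of 14 import genes (21.4%), 3 of 25 transporters (12%), 0 of 15 shuttle enzymes, 5 of 19 haem genes (26.3%) and 3 of 17 regulators (17.6%), beside 12.2% of all probes. In CR-L against WT there were 3, 4, 2, 7 and 7 of the same lists (21.4%, 16%, 13.3%, 36.8% and 41.2%), beside 16.5% of all probes. In CR-L against CR there were 0, 0, 1, 3 and 1, beside 2.22% of all probes.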

How the data were processed

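Members, gene lists and tests were chosen with earlier results of these data known. The authors deposited 1 scanner file per array with spot and background intensity, and a log10 ratio of red over green, made with Agilent Feature Extraction (10.7.3.1, per the submitters' processing notes). The authors' series table of log2 values, whose making is not given in the sources used here, tracked red intensity (lowest r = 0.993 over probes). Its columns share a median of 8.17.

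Mean intensities were corrected with normexp (offset 50) and loess within arrays in limma 3.58.1 (R 4.3.3). Outlier spots (0.408% of values) were dropped and spots of a probe averaged. Probes were kept when red was well above background on at least 7 of 31 arrays. Groups were compared with lmFit and eBayes over 31 arrays, two-sided, Benjamini-Hochberg adjusted over 26716 probes at 0.05. Probe names are those of the array; 5 probes of Mcart1, now Slc25a51, were outside the rule. Named genes were those past the threshold, the 4 with the smallest p on each side of 0 per comparison, and 15 fixed members; of each list, up to 4 genes. A gene's brightest probe stands for it. Tests were checked on simulated data. Correlations used 100000 permutations. The number of arrays limits the precision. Replicate numbers did not pair samples. Some results that the rules take are not reported here.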

Additional observations from a re-analysis of the deposited data

Results flagged for a closer look

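Among the WT arrays, 2 of 53 carrier probes had an array far from the others, by the gap to its nearest neighbour over the range of the 7 values (gap over range of 0.655 and 0.798). Chance flags about 1 in 20 such groups. For the brightest probe of Slc25a14, a relative of the uncoupling proteins, WT replicate 3 had a log2 ratio of 0.21, where the other WT arrays were at most 0.07. For the Slc25a15 probe whose sequence is printed above, the ornithine carrier of the urea cycle, WT replicate 6 had -0.27, where the others lay between -0.02 and 0.05. WT replicate 6 is also the brightest array. The cause of either value was not tested.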

How the results depend on the processing

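Over 56 comparisons of named carriers there were 2459 values under alternatives. No called difference changed sign, but 79 values of 18 comparisons that had not passed did, the largest being Ucp2 in CR-L against WT (0.12, and -0.05 with the replicate block). A call was lost in 8 values and gained in 4, and 38 uncalled values moved by at least the SE of the main difference. Aquantile leaves ratios as they are by construction. Carrier probes called in CR-L against WT (2) became 1 in the red channel alone, the series table (48 probes tested), with marker covariates and with only the 2 groups fitted, and ranged from 0 (without WT replicate 4) to 3 (without CR-L replicate 13) with single arrays left out. The nucleotide role went from 2 to 1 in the same 4 settings (0 to 2 with arrays left out). The amino acid role went from 0 to 1 under Agilent's log ratio and the slide block (0 to 1). Import genes in CR against WT went from 0 to 1 in the red channel, Agilent's log ratio, the all-array filter and the replicate block (0 to 1), and in CR-L against WT from 2 to 1 in the series table and with covariates. Other transporters in CR-L against WT went from 1 to 0 in the series table and with covariates (0 to 1), shuttle enzymes from 0 to 2 with covariates (0 to 2, the highest without CR-L replicate 5), and haem genes in CR against WT from 0 to 1 under the all-array filter, covariates and the 2-group fit (0 to 1). Biogenesis regulators in CR-L against WT went from 1 to 0 in the series table, Agilent's log ratio, no offset, slide block, covariates and the 2-group fit (0 to 2). Marker relations went from 16 to 11, 3 and 8 over group deviations, slide deviations and without 2 arrays (8 to 17). Carrier pairs, whose alternatives were chosen after seeing the data, went from 21 to 27, 29 and 1. The 27 and 29 came from permuting deviations over all arrays, not within groups or slides, and could be too high. The causes were not tested.

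The replicate block gave 0, 2 and 0 carrier calls. The numbers did not pair the samples: same-numbered deviations correlated over 0.1 in 1 of 7, 3 of 7 and 3 of 11 pairs, and 0, 1 and 1 samples correlated best with their own number. Over all probes, CR against WT had 129 calls, 47 in the red channel, 0 in the series table, 51 without offset, 208 under the all-array filter, 264 with the replicate block and 231 with 2 groups. CR-L against WT had 930 and, with covariates, 488.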
